A study of Danio rerio with 12 samples.

Results

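The comparison set whole zebrafish larvae kept in 3 nM tributyltin chloride (TBT) against larvae kept in the solvent alone. Its members were the 6 libraries whose titles name the 3 nM group and the control, 3 of each, out of 12 libraries in the series. All larvae were wild type and were collected at 5 days post fertilization (dpf), as eleutheroembryos, the stage after hatching in which the yolk still feeds the animal. Exposure ran through the water from 2 to 5 dpf with fresh solution every day, and every group, the control included, received 0.2% (v/v) dimethyl sulfoxide (DMSO). Every library held the RNA of 10 pooled larvae, and the other 6 libraries came from 30 and 100 nM TBT. The labels do not say whether pools of the same group were raised from different clutches or exposed apart, and p-values therefore reflect only how these pools varied, which may be technical.

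TBT is an organotin biocide that binds the retinoid X receptors (RXR), the common partners of many nuclear receptors, and PPARγ, a receptor that drives fat storage. Immediate early genes are switched on within minutes of a stimulus without new protein synthesis. Many encode transcription factors, such as those of the Egr family and the Fos and Jun subunits of AP-1, and their short-lived mRNAs follow neuronal activity, growth factor and stress signals. In a whole larva such mRNAs are the sum over all tissues, and in bulk samples like these fewer cells of a type and less RNA per cell cannot be told apart.

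The values were normalised counts of 26816 genes per library, of which 22404 were tested. Their totals per library were 28300000 ± 1970000 in the control and 30200000 ± 1720000 at 3 nM (SD, n = 3 each), a difference that did not pass an exact two-sided permutation test (p = 0.2, smallest possible 0.1). Undoing the authors' scaling, whose steps are visible among low values, gave raw totals of 24100000 to 49700000 for these 6 libraries, and the deepest was 3 nM replicate 1. On the first principal component, which held 29.3% of the variance of the 12 libraries, the control libraries lay at −28.8, 71.7 and 23.9 and the 3 nM libraries at −24.1, 17.4 and −13.3, so that the groups overlapped and control replicate 2 lay farthest out. Within each group, those of 30 and 100 nM included, replicate 1 lay lowest on this component and replicate 2 highest. The tissue lists (lens, retina, muscle, skin, liver, pancreas, gut, blood, brain and ionocytes) had 458 of their 481 matched genes above the filter on low values.

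At 3 nM few transcripts moved past the threshold, and 5 of the 9 that did were immediate early genes, all lower. Of 22404 genes, 9 passed limma's test at an adjusted p of 0.05 (0.0402%), 8 of them lower (0.0357%) and 1 higher, and 8 of the 9 differed by more than 2-fold. At an unadjusted p under 0.05 there were 2385 genes. Among the genes that fell were egr1, egr2a, egr3, fosl1a, cyr61, sik1 and si:ch211-153b23.3, and the gene that rose was si:cabz01068815.1. The number of calls depended on single libraries: without control replicate 2 there were 33, without control replicate 1 there were 2, without 3 nM replicate 3 there were 4, and without control replicate 3, 3 nM replicate 1 or 3 nM replicate 2 there were 0. A fit of the 6 libraries alone called 0 genes by limma, with 2046 at an unadjusted p under 0.05. The fit behind the 9 calls took its spread from every library of the series, those of the higher concentrations included. Why the calls were lost in the smaller fit was not tested. The direction of the 9 changes was the same in each of the fits above, which follows from groups that did not overlap in any of the 9.

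**Figure D1:**
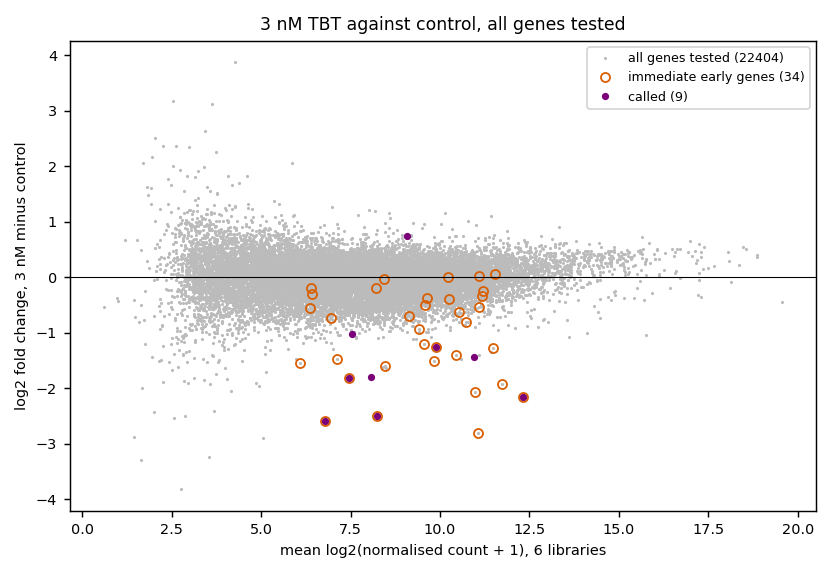
Each grey point is 1 of the 22404 genes tested, with its mean log2(normalised count + 1) over the 6 libraries on the x axis and its log2 fold change at 3 nM on the y axis. Open circles mark the 34 immediate early genes, 32 of which lie below 0, and filled points mark the 9 genes called, 8 of them below 0.

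The Egr genes encode zinc finger transcription factors. egr2a (ENSDARG00000044098) held 447, 185 and 238 normalised counts in control replicates 1 to 3, 44, 35 and 55 at 3 nM, 31, 31 and 52 at 30 nM and 36, 37 and 41 at 100 nM. All 9 exposed libraries lay below the lowest control library, and the 3 exposed groups overlapped each other. The mean at 3 nM was 6.49-fold lower than in the control (log2 fold change −2.59 ± 0.32 SE, limma adjusted p = 0.0277).

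egr1 (ENSDARG00000037421) had 14800, 7983 and 10469 normalised counts in the control and 1791, 2212 and 3454 at 3 nM. The groups did not overlap, and the mean was 4.46-fold lower (log2 fold change −2.17 ± 0.27 SE, limma adjusted p = 0.0277). egr3 (ENSDARG00000089156) had 459, 322 and 243 in the control and 87, 113 and 83 at 3 nM, without overlap (−1.81 ± 0.22 SE, limma adjusted p = 0.0277). EGR4, with 186, 271 and 248 against 70, 70 and 115, was also lower in every 3 nM library but did not pass (−1.48, limma adjusted p = 0.196). The hindbrain and myelinating glia gene egr2b overlapped between the groups, at 61, 145 and 77 in the control and 60, 94 and 82 at 3 nM.

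Fos and Jun proteins pair to form AP-1. fosl1a (ENSDARG00000015355), which encodes a Fos-related subunit, held 1316, 541 and 517 normalised counts in the control and 110, 119 and 155 at 3 nM. Its 3 nM libraries lay below every control library, although control replicate 1 was well above the other control libraries. The mean was 6.18-fold lower (log2 fold change −2.49 ± 0.31 SE, limma adjusted p = 0.0277).

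fosab, the orthologue of FOS, had the lowest log2 fold change of the immediate early genes. It held 8704, 3522 and 5905 in the control against 543, 616 and 1592 at 3 nM, without overlap, but did not pass (−2.80 ± 0.43 SE, limma adjusted p = 0.0709). The Jun genes junbb (6073, 2731 and 4273 against 746, 812 and 1559) and junba (1951, 1109 and 1643 against 462, 461 and 717) were likewise lower in every 3 nM library and did not pass (log2 fold changes −2.07 and −1.51, limma adjusted p = 0.0709 for each). With the libraries scaled to equal totals, fosab, junbb and junba did pass (limma adjusted p = 0.036, 0.0249 and 0.0121). That scaling lowers the changes at 3 nM, and over all genes 13 passed as lower and 0 as higher. For jun itself the difference was smaller, with 2947, 2484 and 2518 in the control and 1644, 1842 and 2024 at 3 nM (−0.53, limma adjusted p = 0.230).

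Members of the list outside the transcription factors above include btg2 and dusp1, of which neither passed on the authors' scaling. btg2, an antiproliferative gene, held 10226, 4339 and 6358 in the control and 1521, 1506 and 2290 at 3 nM (log2 fold change −1.92 ± 0.28 SE, limma adjusted p = 0.0512). With equal totals btg2 passed (limma adjusted p = 0.0121). dusp1, a phosphatase that turns off MAP kinases, held 6375, 2990 and 4594 against 1703, 1613 and 2232 (−1.28, limma adjusted p = 0.178). In both genes the groups did not overlap and control replicate 1 was the highest library. In npas4a, a transcription factor gene of active neurons, control replicate 1 was the lowest of the control libraries, with 370, 836 and 733 in the control and 141, 250 and 231 at 3 nM (−1.59, limma adjusted p = 0.245).

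cyr61 (ENSDARG00000023062) encodes a signalling protein secreted into the matrix. It had 1888, 1202 and 1370 normalised counts in the control and 571, 630 and 631 at 3 nM. The groups did not overlap, and the mean was 2.43-fold lower (log2 fold change −1.26 ± 0.15 SE, limma adjusted p = 0.0277). sik1 (ENSDARG00000058606), a salt-inducible kinase gene that cyclic AMP signals induce in mammals, had 4326, 2548 and 3202 against 1076, 1324 and 1230, without overlap (−1.44 ± 0.20 SE, limma adjusted p = 0.0469).

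The immediate early gene list as a whole lay lower. Of its 36 matched genes 34 passed the filter, and 32 of these had a log2 fold change below 0 and the median was −0.77, against 0.01 over all genes tested. Scaling the libraries to equal totals gave −0.86 and −0.08. In 22 members every 3 nM library lay below every control library and in 0 members above, while over all genes 7.62% were so separated downwards and 8.23% upwards. 5 members passed the test, all lower: egr1, egr2a, egr3, fosl1a and cyr61. With equal totals 9 members passed, all lower, fosab, junbb, junba and btg2 being added. Over all genes that scaling called 13 lower and 0 higher. It lowers the changes at 3 nM and so favours falls. The median over same-numbered libraries was −1.21 for replicate 1, −0.63 for replicate 2 and −0.75 for replicate 3. The list was chosen with earlier results of these data known and is not independent evidence of its direction. Not all members were lower: nr4a3, maff, ier5 and klf6a had log2 fold changes between −0.03 and 0.07, with overlapping groups.

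**Figure D2:**
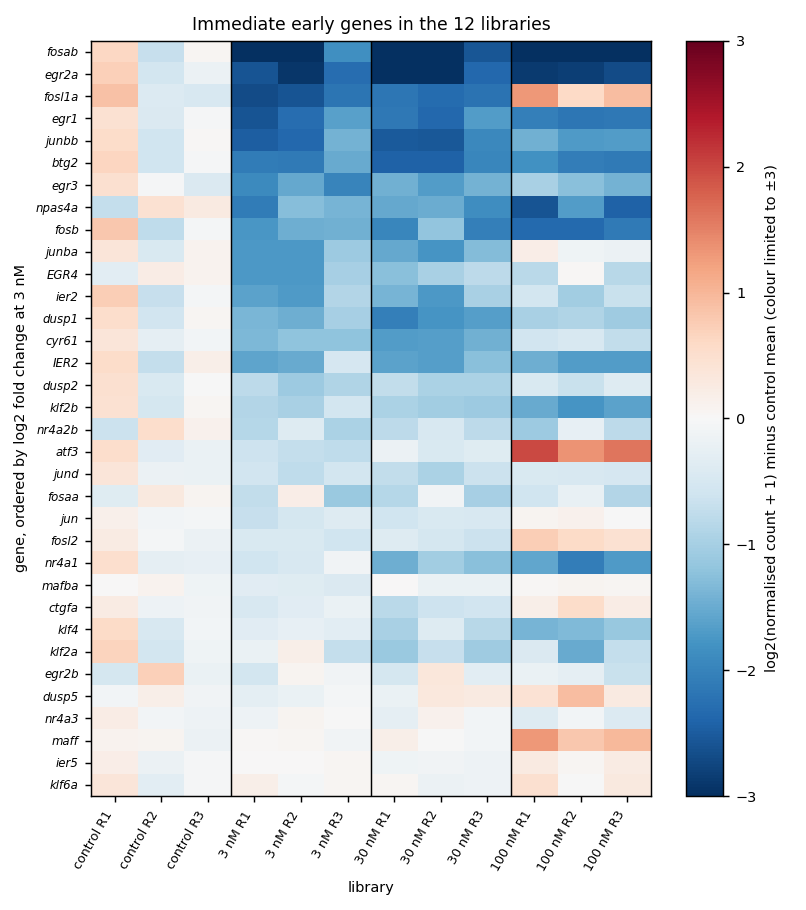
Each row is 1 of the 34 immediate early genes tested, ordered by its log2 fold change at 3 nM, and each column is 1 of the 12 libraries; the colour gives log2(normalised count + 1) minus the mean of the 3 control libraries. The rows at the top are blue in all 3 of the 3 nM libraries and in the 30 nM libraries, and control replicate 1 is red in most rows, while fosl1a, atf3 and maff are red at 100 nM.

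At 30 nM no immediate early gene differed from 3 nM past the threshold, and at 100 nM some members were higher than at 3 nM and others lower. These direct comparisons hold no control library. Between 30 and 3 nM, 30 of 22404 genes passed (0.134%), 0 of them immediate early genes, and the list's median difference was −0.07. Between 100 and 3 nM, 3193 genes passed (14.3%), 1744 higher and 1449 lower, or 1055 higher and 1928 lower with equal totals. Of the 34 immediate early genes, 11 were higher and 3 lower at 100 nM than at 3 nM, against 7.78% and 6.47% of all genes. In 12 of the 34 (35.3%) all 9 exposed libraries lay below all control libraries, against 1.92% of all genes. The 3 concentrations share the same 3 control libraries, so that a level peculiar to those control pools cannot be told apart from an effect of TBT.

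fosl1a held 160, 145 and 153 normalised counts at 30 nM and 1772, 1093 and 1354 at 100 nM, so that its 100 nM libraries were above all 3 nM libraries (log2 difference 3.44, limma adjusted p = 7.59e-05). cyr61, with 456, 466 and 538 at 30 nM and 986, 1047 and 880 at 100 nM, was higher at 100 than at 3 nM by 0.67 (limma adjusted p = 0.0132). egr1 was not, at 2589, 2376 and 2408 at 100 nM (0.04, limma adjusted p = 0.952), and sik1 stayed at 1106, 1442 and 1019 (−0.04, limma adjusted p = 0.939).

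**Figure D3:**
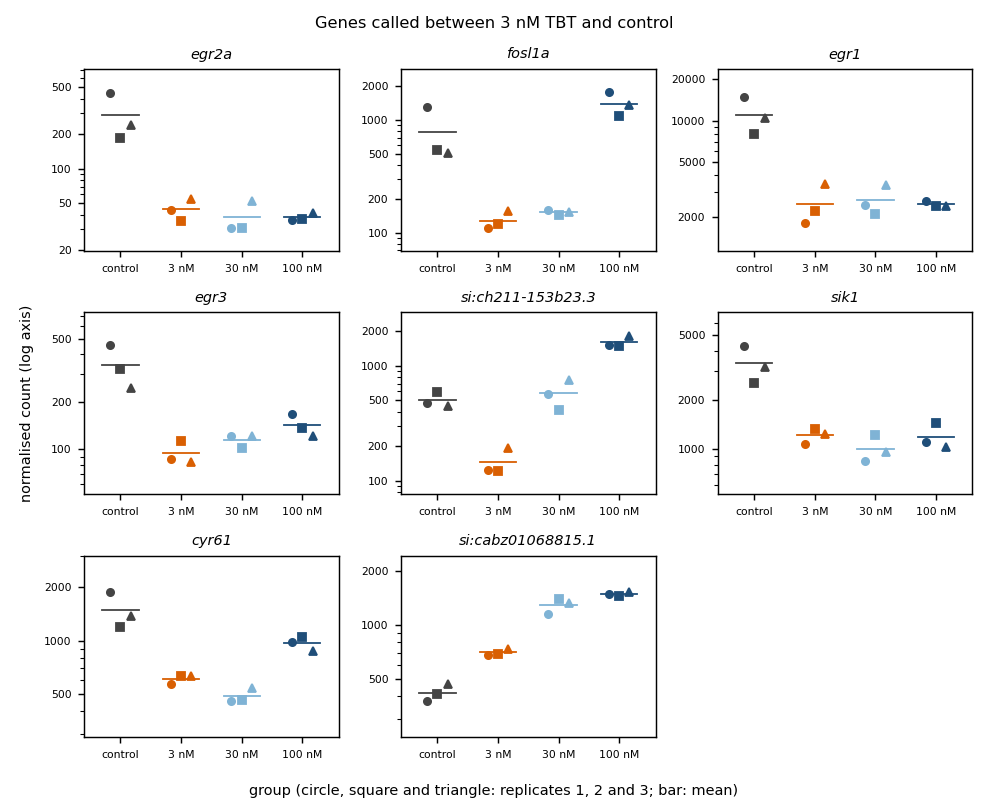
The 8 panels give the normalised counts (log axis) of genes called between 3 nM and control in all 12 libraries, with 1 symbol shape per replicate number and a bar at each group mean. In 7 panels the 3 nM libraries sit below the control libraries, and in si:cabz01068815.1 they sit above; the means of fosl1a and si:ch211-153b23.3 are above the control at 100 nM.

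A pair of the genes called bear clone names, and their roles are not given in the sources used here. si:ch211-153b23.3 (ENSDARG00000104919) had 471, 592 and 444 normalised counts in the control, 123, 122 and 194 at 3 nM, 573, 412 and 745 at 30 nM and 1527, 1498 and 1815 at 100 nM. Thus the 3 nM libraries were the lowest of all 12, the 30 nM libraries overlapped the control, and the 100 nM libraries were above every other. It fell at 3 nM (log2 fold change −1.80 ± 0.23 SE, limma adjusted p = 0.0280), and 30 and 100 nM were higher than 3 nM by 1.97 (limma adjusted p = 0.00938) and 3.48 (limma adjusted p = 1.60e-05). si:cabz01068815.1 (ENSDARG00000105451) was ordered by concentration instead, with 376, 411 and 469 in the control, 684, 689 and 739 at 3 nM, 1151, 1401 and 1337 at 30 nM and 1489, 1463 and 1533 at 100 nM. No library of 1 group overlapped another group. It rose at 3 nM by 0.75 ± 0.10 SE (limma adjusted p = 0.0469), and rose again from 3 to 30 nM by 0.88 (limma adjusted p = 0.00938). With equal totals its change at 3 nM was 0.66 and did not pass (limma adjusted p = 0.363).

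A fit with the replicate number as a block compares each 3 nM library with the control library of the same number. Like the first fit, it took its spread from all 12 libraries, so its p-values are not those of a paired test within the 6. The labels do not say what a shared number means, so the calls of this fit stand second here. It called 1234 of 22404 genes, 427 higher (1.91%) and 807 lower (3.6%), including all 9 above. All 1234 moved in the same direction in the 3 pairs, but this fit favours genes whose pairs agree, so the agreement is no further evidence. Their median absolute log2 fold change was 0.52, with 16 rises and 53 falls past 2-fold. The count rested on single numbers, being 1552 without replicate 1, 73 without replicate 2 and 3 without replicate 3. With the block on the 6 libraries of control and 3 nM alone it was 0 (lowest limma adjusted p = 0.137). Of the 34 immediate early genes 23 were called with the block, all lower (3.6% of all genes), among them fosab, junbb, junba, btg2, npas4a and dusp1 (limma adjusted p with the block between 0.0118 and 0.0295). Further large differences with the block, in si:ch211-39f2.3 (964, 406 and 665 against 141, 281 and 216) and jdp2b, a repressor that binds AP-1 sites (1184, 343 and 499 against 195, 184 and 196), had log2 fold changes of −1.64 and −1.61.

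Rises with the block are named here for genes with a mean over all 12 libraries of at least 5 CPM (relative to the total of the values). Of the 16 rises past 2-fold, 9 were below that and are not named. The largest of those named was in opn1lw1, a red cone opsin gene. Its mean of 25.2 CPM drew mainly on the 30 and 100 nM libraries. Over the 6 compared libraries alone its mean would fall below the limit, so its place in this ranking rests on the other groups. opn1lw1 held 64, 111 and 74 normalised counts in the control, 212, 239 and 150 at 3 nM, 1331, 1245 and 1301 at 30 nM and 1363, 1957 and 1199 at 100 nM. Each 3 nM library was above each control library and below each library of the higher concentrations. The mean was 2.41-fold higher at 3 nM (log2 fold change 1.27 ± 0.24 SE), which passed with the block (limma adjusted p = 0.0152) and not without it (0.196), and 30 nM was higher than 3 nM by 2.71 (limma adjusted p = 0.00134). Its close relative opn1lw2, looked up after these values were seen, overlapped between the groups with 15320, 24749 and 20304 in the control and 20917, 22324 and 17835 at 3 nM. Reads may be shared between these opsins, so the level of opn1lw1 is uncertain.

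The rises with the block included the genes of both ubiquitin ligases best known from wasting muscle. fbxo32, which encodes atrogin-1, held 666, 1140 and 556 in the control and 1895, 1721 and 1456 at 3 nM (log2 fold change 1.16, limma adjusted p = 0.0279 with the block and 0.358 without). trim63a, which encodes the ligase MuRF1, held 2060, 2082 and 1515 against 4757, 4009 and 3396 (1.11, limma adjusted p = 0.00754 with the block and 0.316 without). In both genes every 3 nM library was above every control library, which their choice as large rises with the block favours.

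klhl38b, next to fbxo32 on chromosome 16 of the RefSeq annotation with 0 genes between them, held 543, 705 and 411 against 1253, 1047 and 899 (0.97, limma adjusted p = 0.0306 with the block and 0.386 without). pdk2b, a kinase that shuts off pyruvate oxidation, held 6496, 9976 and 6651 against 16665, 13576 and 12628 (0.91, limma adjusted p = 0.0295 with the block and 0.341 without). calcoco1b was higher by 1.15 with the groups just apart, at 184 to 407 in the control and 422 to 797 at 3 nM. Between 100 and 3 nM, fbxo32 and trim63a differed by −0.03 and −0.04 on the log2 scale, with overlapping libraries (limma adjusted p = 0.976 and 0.945).

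The remaining rises named by the block were fads2, crp, hbbe1.2, si:dkey-239h2.3, si:ch211-181d7.1 and si:ch211-181d7.3. fads2, a desaturase for long fatty acids, held 765, 1726 and 1443 in the control and 2057, 3028 and 2496 at 3 nM (log2 fold change 1.01, limma adjusted p = 0.0168 with the block and 0.397 without). crp, a C-reactive protein gene, held 612, 912 and 762 against 1796, 1440 and 1197 (0.95, limma adjusted p = 0.0313 and 0.245). hbbe1.2, an embryonic globin gene, held 1470, 1022 and 2191 against 2517, 2566 and 3640 (0.94, limma adjusted p = 0.0267 and 0.407). All 6 genes had every 3 nM library above every control library, against 8.23% of all genes. Among the 1234 calls with the block, 645 had groups that did not overlap. The 6 genes were picked as large rises shared by all 3 pairs, which favours such separation, so it is no further evidence. crp, the globins and the si:ch211-181d7 genes have close relatives with which they may share reads.

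**Figure D4:**
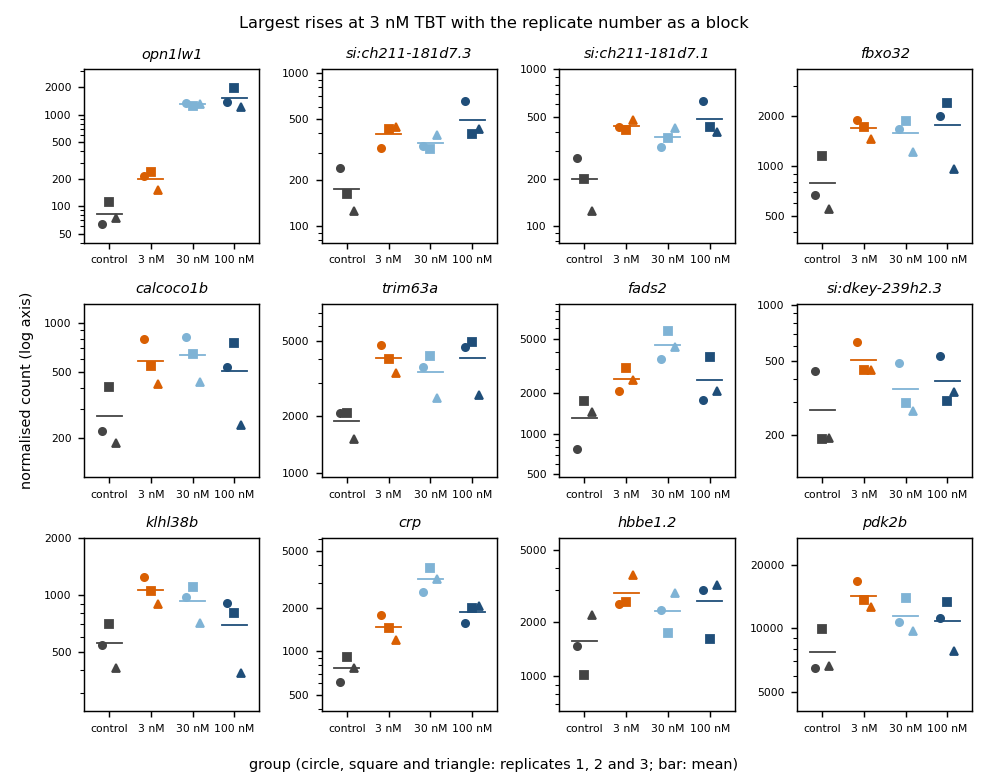
The 12 panels give the normalised counts (log axis) in all 12 libraries, with 1 symbol shape per replicate number and a bar at each group mean. The genes are the 12 largest rises called with the replicate block among those with a mean over all 12 libraries of at least 5 CPM (relative to the total of the values). In every panel the 3 nM libraries lie above the control libraries, which the choice of large rises with the block favours. The 30 nM libraries of opn1lw1 lie above its 3 nM libraries, while those of fbxo32, trim63a and pdk2b overlap them.

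Stress and inflammation genes lay slightly lower at 3 nM, and 0 members of either list passed without the block on the authors' scaling. Equal totals moved the median over all genes from 0.01 to −0.08. It lowered both list medians too, to −0.25 and −0.24, so their sign could not turn. With equal totals and no block, 2 inflammation genes, irg1l and cebpb, passed as lower (limma adjusted p = 0.033 and 0.036) and 0 stress genes passed. Over all genes 13 then passed as lower and 0 as higher. Of 39 heat shock and integrated stress response genes, 27 had a log2 fold change below 0 (median −0.16), and the block called 7 lower, among them atf3, which is also on the immediate early list, and 1 higher, against 3.6% lower and 1.91% higher of all genes. hspa5, the chaperone BiP of the endoplasmic reticulum, held 4652, 6129 and 4473 normalised counts in the control and 2893, 3861 and 3110 at 3 nM (−0.63, limma adjusted p = 0.0152 with the block and 0.341 without). hsp90aa1.2, an inducible cytosolic chaperone gene, held 1569, 2680 and 1469 against 1003, 1534 and 991, with overlap (−0.67, limma adjusted p = 0.0152 and 0.459). The member called higher was chac1, which breaks down glutathione, with 11605, 8093 and 8046 against 15159, 12459 and 13436 (0.58, limma adjusted p = 0.0305 and 0.399).

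Of 38 inflammation and acute phase genes, 23 were below 0 (median −0.16), with 4 lower and 1 higher with the block, against 3.6% and 1.91% of all genes. irg1l, a gene of the itaconate enzyme family, held 956, 1017 and 877 in the control, 415, 345 and 581 at 3 nM, 1276, 988 and 1367 at 30 nM and 3253, 2485 and 3246 at 100 nM. The 3 nM libraries were the lowest of the 12 (log2 fold change −1.12, limma adjusted p = 0.0152 with the block and 0.144 without), and 30 and 100 nM were higher than 3 nM by 1.46 and 2.76 (limma adjusted p = 0.0149 and 2.10e-05). cebpb, a transcription factor of the acute phase, held 5531, 2446 and 3255 in the control and 1154, 1256 and 1635 at 3 nM (−1.41, limma adjusted p = 0.0274 with the block and 0.173 without) and then 7012, 5235 and 5550 at 100 nM. Between 100 and 3 nM, 21 of the stress genes were called higher and 4 lower, and 23 of the inflammation genes higher and 2 lower, against 7.78% higher and 6.47% lower of all genes.

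Tissue lists differed in direction. The medians of the log2 fold change were 0.42 for 40 lens crystallin genes, 0.35 for 57 sarcomere genes and 0.30 for 27 erythrocyte and haem genes, and −0.57 for 29 exocrine pancreas and digestive enzyme genes, −0.48 for 47 synapse and neuron genes and −0.22 for 48 photoreceptor genes. With equal totals the positive medians stayed above 0, at 0.33, 0.26 and 0.21. That scaling lowers the changes at 3 nM, so the negative medians could not change sign. In these 6 lists 0 members passed limma's test without the block. Over same-numbered libraries the lens median ran from −0.01 for replicate 3 to 0.86 for replicate 1 and the neuron median from −0.72 to −0.17. The photoreceptor median ran from −0.34 for replicate 2 to 0.0009 for replicate 1. The 43 keratin and epidermis genes had a median of 0.25, with same-numbered libraries from −0.23 to 0.55.

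In muscle, 20 of the 57 sarcomere genes had every 3 nM library above every control library, against 8.23% of all genes, and the block called 8 higher (1.91% of all genes) and 0 lower. atp2a1l, a calcium pump gene of the sarcoplasmic reticulum, held 32619, 47734 and 40348 normalised counts in the control and 68643, 60117 and 68025 at 3 nM (log2 fold change 0.72 ± 0.17 SE, limma adjusted p = 0.0349 with the block and 0.322 without). mb, the myoglobin gene, held 1888, 1714 and 1613 against 2525, 2615 and 2570, and 7056, 6255 and 7501 at 100 nM. It was 0.57 higher at 3 nM (limma adjusted p = 0.0333 with the block and 0.245 without) and a further 1.43 higher at 100 nM (limma adjusted p = 4.36e-05). The cardiac myosin genes myh6 and vmhcl, picked out after their values were seen, were not among the higher members, at 71, 308 and 234 against 98, 185 and 77 for myh6 and 87, 1054 and 831 against 379, 374 and 226 for vmhcl.

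In the brain, 45 of 47 synapse and neuron genes were below 0 and the block called 19 lower (3.6% of all genes) and 0 higher, yet in only 2 did the groups not overlap (7.62% of all genes). slc17a6a, a vesicular glutamate transporter gene, shows the pattern with 353, 884 and 538 in the control and 216, 440 and 267 at 3 nM (log2 fold change −0.91, limma adjusted p = 0.0267 with the block and 0.459 without). Replicate 2 was the highest library in both groups, and it was so in vamp2, a synaptic vesicle gene, too (976, 1830 and 1443 against 662, 1163 and 731; −0.73, limma adjusted p = 0.0333 and 0.459). Of 22 myelin and glia genes, 17 were above 0 and 5 below (median 0.15, or 0.05 with equal totals). The block called 2 of them higher (1.91% of all genes) and 1 lower (3.6% of all genes). The higher were plp1b and mbpa, the myelin basic protein gene, at 1799, 2314 and 1675 against 3201, 2778 and 3472 (0.72, limma adjusted p = 0.0313 and 0.206). The lower was slc1a2b, a glutamate transporter gene of glia, with 6957, 17685 and 12130 against 6201, 9989 and 6712, with overlap (−0.61, limma adjusted p = 0.0349 and 0.493).

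The exocrine pancreas list had 27 of 29 genes below 0, and in 9 the groups did not overlap, all lower (7.62% of all genes), but 0 passed either fit. cel.2, a lipase gene picked out after its values were seen, held 1657, 3018 and 3380 in the control and 647, 961 and 1262 at 3 nM (log2 fold change −1.48, limma adjusted p = 0.498, and 0.162 with the block). The spread between libraries of a group was large in these genes. Nutrient uptake genes of the gut lay at a median of 0.02, or −0.07 with equal totals, with same-numbered libraries ranging from −0.63 to 0.71.

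In the lists of oxidative phosphorylation and ribosome biogenesis 0 members passed limma's test without the block. All 75 oxidative phosphorylation genes had a log2 fold change above 0 (median 0.23, or 0.14 with equal totals), 24 of them had groups that did not overlap (8.23% of all genes upwards), and the block called 7 higher (1.91% of all genes). Of 49 ribosome biogenesis genes 48 were above 0 (median 0.23, or 0.13 with equal totals), and the block called 12 higher (1.91% of all genes) and 0 lower. cox8b, a subunit gene of cytochrome oxidase, held 598, 625 and 632 normalised counts in the control and 817, 746 and 840 at 3 nM (0.37, limma adjusted p = 0.0360 with the block and 0.341 without). wdr43, a gene of the machinery that processes ribosomal RNA, held 2965, 2301 and 2553 against 4084, 3072 and 3425 (0.43, limma adjusted p = 0.0267 and 0.386). Over same-numbered libraries the oxidative phosphorylation median ran from 0.21 to 0.27 and the ribosome biogenesis median from 0.17 to 0.25.

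**Figure D5:**
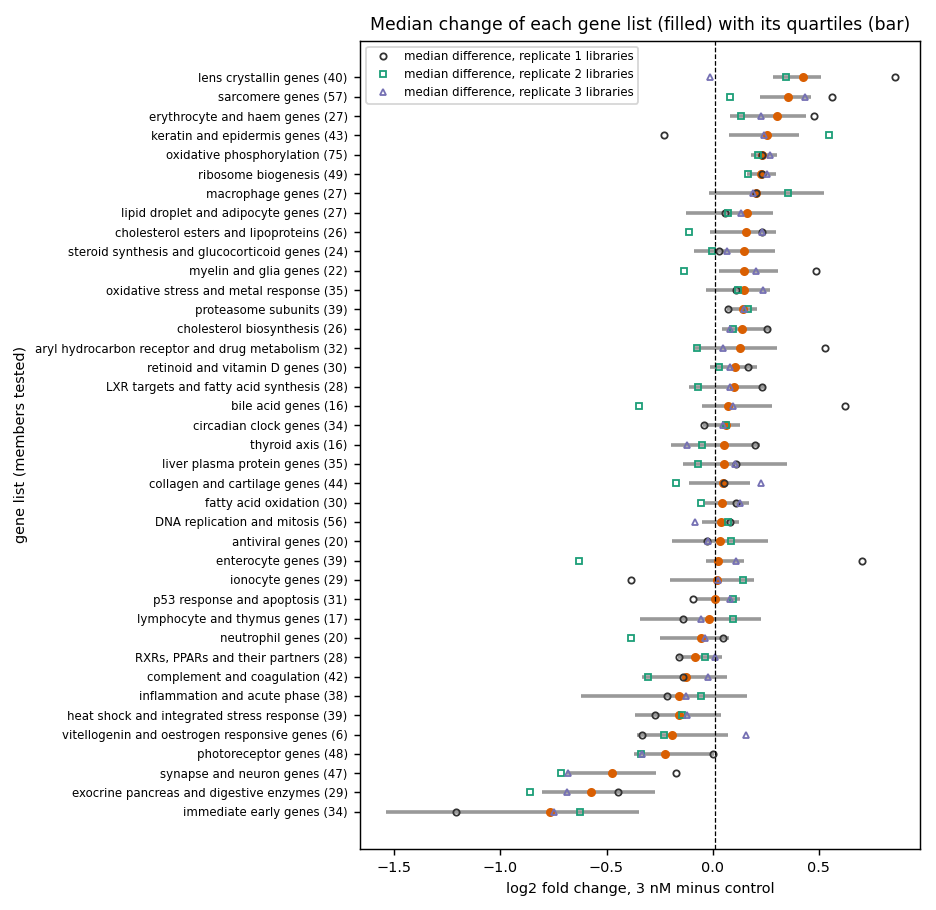
Each row is 1 of the 39 gene lists, with the number of members tested; the filled point is the median log2 fold change at 3 nM over the members, the bar spans their quartiles, and the open symbols are the medians of the differences between same-numbered libraries. The dashed line is the median of all genes tested, 0.01; the immediate early genes lie farthest to the left, at −0.77, and the lens crystallin genes farthest to the right, at 0.42, with a wide scatter between the open symbols.

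The genes of the receptors TBT binds and of their partners showed little at 3 nM. Of 28 genes of RXRs, PPARs and their partners 0 passed either fit (median log2 fold change −0.09, range −0.41 to 0.24, lowest limma adjusted p = 0.477), although in 7 every 3 nM library lay below every control library (25%, against 7.62% of all genes). The RXR genes rxraa, rxrab, rxrba, rxrbb, rxrga and rxrgb had log2 fold changes between −0.15 and 0.24. pparg held 322, 356 and 279 normalised counts in the control and 274, 263 and 272 at 3 nM (−0.23 ± 0.14 SE, limma adjusted p = 0.529). cyp26a1, the retinoic acid hydroxylase gene, held 112, 100 and 105 against 118, 104 and 106. The brain aromatase gene cyp19a1b was near the floor, at 7, 12 and 12 against 5, 9 and 9, and the ovarian aromatase gene cyp19a1a, at 0 to 5 in all 12 libraries, was below the filter.

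Genes that differed strongly between 100 and 3 nM gave smaller differences at 3 nM. scd, the stearoyl-CoA desaturase gene, held 18, 18 and 19 normalised counts in the control, 26, 29 and 30 at 3 nM, 151, 201 and 112 at 30 nM and 290, 364 and 267 at 100 nM. soat2, which encodes a sterol acyltransferase, held 111, 107 and 101, then 195, 162 and 158, then 560, 734 and 920, then 627, 1480 and 1110. In both genes the 3 nM libraries lay above the control and below the higher concentrations without passing either fit (log2 fold changes 0.60 and 0.68, limma adjusted p = 0.407 and 0.433, and 0.0760 and 0.112 with the block), and 30 nM was higher than 3 nM by 2.37 and 2.08 (limma adjusted p = 0.00134 and 0.0149).

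lyve1a, a hyaluronan receptor gene of lymphatic vessels, held 47, 69 and 61 in the control, 84, 77 and 85 at 3 nM and 644, 637 and 640 at 100 nM (0.48 at 3 nM, limma adjusted p = 0.368). cyp24a1, the vitamin D hydroxylase gene, held 1372, 1757 and 1062 against 2025, 2846 and 1484, with overlap, and passed with the block (0.58, limma adjusted p = 0.0349) but not without it (0.525). abca1a and cyp1b1 overlapped between 3 nM and the control (0.24 and 0.13, limma adjusted p = 0.484 and 0.791). abca1b, the paralogue of abca1a, stood the other way, with 3331, 3263 and 3590 in the control and 2090, 2272 and 2812 at 3 nM, without overlap (−0.52, limma adjusted p = 0.0313 with the block and 0.400 without). The 28 tested targets of the liver X receptor and genes of fatty acid synthesis had a median of 0.10, or 0.01 with equal totals. Of these the block called fads2 and lpin1 higher (1.91% of all genes) and abca1b lower (3.6% of all genes). The gut genes slc15a1a, a peptide transporter, and enpp7.1, a sphingomyelinase, whose log2 differences between 100 and 3 nM were −3.81 and −3.52, overlapped at 3 nM as well (−0.17 ± 0.43 and 0.02 ± 0.26 SE, limma adjusted p = 0.898 and 0.984).

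With the block, 3 of 27 macrophage genes, 5 of 27 erythrocyte and haem genes and 4 of 35 liver plasma protein genes were called higher, against 1.91% of all genes, and 1 liver gene was called lower, against 3.6%. In 13 of the 39 lists 0 members were called with the block, and in 38 lists 0 were called without it on the authors' scaling. With equal totals and no block, the inflammation list had 2 members called lower. The p53 and apoptosis list and the lipid droplet list then had 1 each. These were btg2 and cebpb, already counted on the immediate early and the inflammation list, and not further genes. fabp10a, the liver fatty acid binding protein gene, held 6376, 10096 and 9317 normalised counts in the control, 12691, 13337 and 12205 at 3 nM and 19917, 26472 and 24007 at 30 nM (0.59 at 3 nM, limma adjusted p = 0.0325 with the block and 0.399 without). csf1ra, a receptor gene of macrophages and pigment cells, held 862, 792 and 729 against 989, 934 and 1120 (0.35, limma adjusted p = 0.0474 and 0.341). In both genes every 3 nM library lay above every control library. DNA replication and mitosis genes, of which 50 of 56 were lower at 100 than at 3 nM (6.47% of all genes), had a median of 0.04 at 3 nM, or −0.06 with equal totals.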

How the data were processed

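Stranded poly(A) RNA-seq was run on 12 pools of whole zebrafish larvae, per the labels' protocols. Per the submitters' processing notes, the tools were STAR 2.5.1b, DESeq2 1.10.1, RSEM 1.2.28 and CASAVA. GRCz10 is the build listed there, and neither the role of each tool nor the annotation release is given in the sources used here. The values the authors deposited are treated as a score: the file headers call them normalised counts, and each is a whole number that had been scaled by library. A count test was therefore not run.

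log2(value + 1) was fitted with limma 3.58.1 in R 4.3.3 over all 12 libraries, with eBayes moderation and a variance trend. A gene was tested where 3 or more libraries reached a value of 10, and the Benjamini-Hochberg adjustment ran over all of them, with 0.05 as the threshold. On this scale the fold changes of genes with low values come out too small. The second fit added the replicate number as a block. The procedure was also run on simulated data, in which noise was drawn for each gene apart. Its outcome is not given here and says nothing on the calls of these libraries.

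Named genes were those called, the 12 largest rises and 12 largest falls with the block among genes bearing a symbol that averaged 5 CPM or more over all 12 libraries (relative to the total of the values) and moved one way in all 3 pairs, 3 members of each list with 3 or more calls in either fit, and a fixed set of receptor and TBT-responsive genes. The members and the 39 gene lists were chosen with earlier results of these data known. List members named beyond the rule (such as egr2b, jun, dusp1, nr4a3, maff, ier5, klf6a and atf3) were chosen after their values were seen. Gene names and the neighbourhood of genes came from the files and a RefSeq table of another assembly. Alternatives were pseudocounts, filters, scalings, moderation settings, the block and leaving out each library. The genome and gene sequences were not used here. Of the genes called, 1 is not reported here.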

Additional observations from a re-analysis of the deposited data

Results flagged for a closer look

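In several genes the means at 3 nM and at a higher concentration stood on opposite sides of the control mean. These genes were picked because the direct comparison of the concentrations passed limma's test, so its passing is no further evidence (all values are log2 differences). The same 3 nM libraries enter that comparison and the one with the control. fosl1a and si:ch211-153b23.3, which fell at 3 nM, were higher at 100 than at 3 nM by 3.44 and 3.48, and si:ch211-153b23.3 was higher at 30 than at 3 nM by 1.97. The immune gene irg1l passed as lower at 3 nM with the replicate block, and with equal totals and no block (limma adjusted p = 0.033). It was higher than at 3 nM by 1.46 at 30 nM and by 2.76 at 100 nM. cebpb likewise passed as lower with the block, and with equal totals and no block (limma adjusted p = 0.036). The chaperone gene hsp90aa1.2 was called lower at 3 nM with the block only. cebpb and hsp90aa1.2 were higher at 100 than at 3 nM by 2.14 and 1.41. The opposite order was seen in lpin1, a phosphatidate phosphatase gene, and gpx4a, a lipid peroxide reductase gene. Both were higher at 3 nM with the block only, and differed between 100 and 3 nM by −0.74 and −1.61. gpx4a held 16297, 7636 and 12004 normalised counts in the control, 20567, 15520 and 18284 at 3 nM and 7855, 3742 and 7001 at 100 nM. Against the control, only si:ch211-153b23.3 and irg1l passed on the opposite side, both at 100 nM (limma adjusted p = 0.00066 and 0.00026). Neither did so at 30 nM (limma adjusted p = 0.860 and 0.615). At 100 nM fosl1a, cebpb, hsp90aa1.2, lpin1 and gpx4a did not pass against the control (limma adjusted p from 0.0560 to 0.304).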

How the results depend on the processing

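The 9 genes called at 3 nM kept their direction in all 180 values computed under the alternatives, and kept their call in 97. In each of the 9 the groups did not overlap, so that leaving out a library could not turn the direction. The block, the filters and the moderation settings left the fold change of these genes unchanged when all libraries were kept. The kept direction is therefore no further evidence. The number of genes called was 0 with the 6 libraries alone, 0 with the block on those 6, 0 with no variance trend (2236 genes at an unadjusted p under 0.05) and 0 to 33 when 1 library was left out, and with the replicate block it was 1234, or 1552, 73 and 3 without replicate 1, 2 and 3. With equal totals 13 genes were called between 3 nM and control, 13 lower and 0 higher. Between 30 and 3 nM the 30 calls became 129 with the replicate block, 193, 64 and 18 without replicate 1, 2 and 3, 19 with equal totals, and 4 to 38 when 1 library was left out. Between 100 and 3 nM the 3193 calls became 6191 with the replicate block, 4976 with the block without replicate 1, and 1915 to 3748 when 1 library was left out. The cause was not tested. The difference of library totals was 994000 to 2940000 when 1 library was left out.

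Replicate numbers were checked as a pairing: deviations from the group means of control and 3 nM libraries with the same number correlated across genes at 0.383, 0.453 and 0.096. The 3 nM replicate 3 library correlated more with control replicate 1, at 0.153, than with control replicate 3. Thus not every pair passed 0.1, and the block was kept as the second fit. Over all pairs of groups, same-numbered libraries correlated at 0.293 to 0.578 for replicates 1 and 2 and at −0.02 to 0.15 for replicate 3. The fit without the block takes no account of what replicates 1 and 2 shared across groups.

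Among the uncalled genes some changed sign. With the replicate block, rxrab was 0.34 without replicate 1, slc15a1a 0.071 without replicate 2 and enpp7.1 −0.061 without replicate 3. With equal totals, rxrbb was −0.0065, cyp26a1 −0.044 and enpp7.1 −0.076. With 1 library left out, rxrab ran from −0.40 to 0.20, rxrga ran from −0.10 to 0.38, slc15a1a ran from −0.38 to 0.23, cyp26a1 ran from −0.0076 to 0.090, enpp7.1 ran from −0.18 to 0.28. Depth limits genes near the floor, such as cyp19a1b.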
